A study of Homo sapiens with 12 samples.

Results

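Breast cancer cells that carried wild-type progesterone receptor B (WT PR-B) were compared with matched cells that carried an empty vector (PR-null), both without progestin. The comparison took the 2 WT arrays and the 2 PR-null arrays given vehicle, 4 of the 12 arrays of the series, and was made across all 20046 genes with a usable probe. It asks which genes differed between the lines when no ligand had been added to the receptor.

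All cells were T47D-Y, a PR-negative derivative of the T47D luminal breast cancer line, and all carried the pIRES-neo3 vector and were grown under G418 selection. WT cells had the cDNA of WT PR-B in that vector, PR-null cells had the vector alone, and another line, KR, had a PR-B mutant that cannot be SUMOylated. Each line was expanded from single cells, and how many clones entered the arrays is not given in the sources used here. Receptor and clone therefore cannot be told apart in any difference between lines. Cells were serum starved and then given vehicle or the synthetic progestin R5020 for 6 h, with 2 arrays from duplicate experiments in each of the 6 groups. P-values measure the spread between such duplicates of a line, and not the spread between independently derived clones.

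The progesterone receptor is a steroid-activated transcription factor of the nuclear receptor family. Upon binding progestin it dimerizes, binds DNA at palindromic hormone response elements and recruits coregulators. The PR gene is itself a classical target of the estrogen receptor. Without ligand the receptor can be phosphorylated by growth factor-activated kinases, and PR without hormone has been described as altering the transcription of some genes in breast cancer cells.

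Values are normalized log2 intensities, so a difference of 1 is a 2-fold difference. The brightest probe stood for each gene, which was called when the log2 difference, WT minus PR-null, exceeded 0.6 (1.52-fold) in size with a Benjamini-Hochberg adjusted p below 0.01 in limma. Probes of olfactory receptor genes, which breast cells are not known to use, set a background limit of 6.09. Replicate arrays correlated at 0.9945 to 0.9951 over all probes, while WT and PR-null vehicle arrays correlated at 0.9878 to 0.988. All 8 luminal markers checked (KRT8, KRT18, KRT19, EPCAM, CDH1, ESR1, GATA3 and FOXA1) were above background on all 4 arrays. Of 11 measured leukocyte, endothelial and fibroblast markers, 1, COL1A1, was above background on all 4 arrays, and none was called.

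In WT cells 295 genes were higher (1.47% of the genes tested) and 338 were lower (1.69%) than in PR-null cells, together 3.16%. Of the 20046 genes, 11581 were expressed, that is above background on both arrays of a line. These held all 295 higher and 337 of the 338 lower genes. The shares called among expressed genes are therefore larger than those over all genes, which are the ones set beside the gene lists below. The higher genes had a median log2 difference of 0.76, and the size of the fall among the lower genes had a median of 0.86. Among the higher genes 75 differed by more than 1 and 9 by more than 2. Among the lower genes 119 differed by more than 1 and 15 by more than 2. The median over all genes was 0.005. Each of the 633 genes past the size threshold had an adjusted p of 0.00094 or less, so the size threshold alone decided which genes were called.

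PGR, the introduced gene, was at 8.49 and 8.62 in WT cells, against 5.38 and 5.46 in PR-null cells, where it was not above background. The arrays of the lines did not overlap, and the labels of all 4 arrays fitted their PGR level. Because the PR-null level had only an upper bound, the fold was taken against the background limit on each array (or the probe's own value where higher), here and wherever "at least" is written. PGR was at least 5.51-fold higher in WT cells (log2 difference 3.13 ± 0.11 by the fit, here and below the standard error, limma adjusted p = 1.706e-25). Where the probe lies in the receptor transcript is not given in the sources used here, so vector-borne and native PGR cannot be told apart.

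**Figure D1:**
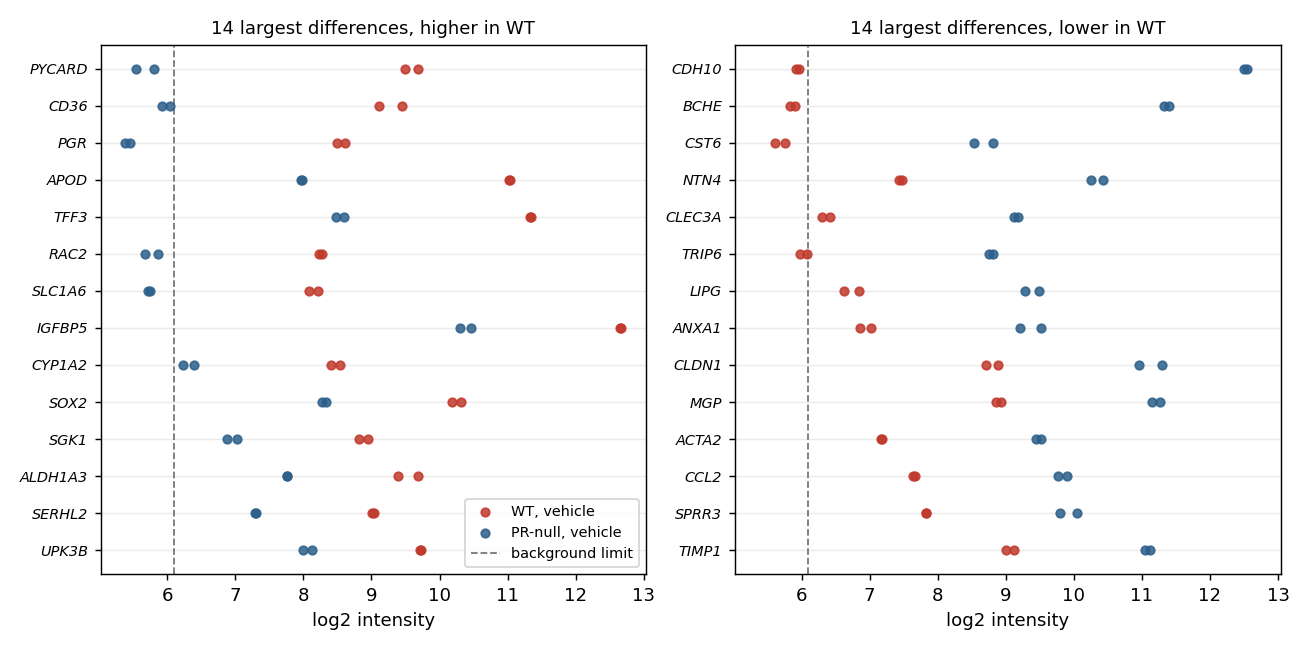
Normalized log2 intensity (x axis) of the 14 genes with the largest higher and the 14 with the largest lower values in WT cells, each point being 1 array and the dashed line the background limit of 6.09. WT and PR-null arrays do not overlap for any of the 28 genes, and CDH10 shows the widest gap.

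Several genes were read in WT cells and not above background in PR-null cells. PYCARD, which encodes the ASC adaptor of the inflammasome, was at 9.68 and 9.49 in WT cells and at 5.81 and 5.54 in PR-null cells. It was at least 11.3-fold higher in WT cells (log2 difference 3.91 ± 0.11, adjusted p = 5.515e-29). A second, dimmer PYCARD probe gave a smaller difference of 0.98. CD36, a scavenger receptor that takes up fatty acids, was at 9.12 and 9.45 in WT cells and at 6.04 and 5.92 in PR-null cells. It was at least 9.12-fold higher, and its other probes gave log2 differences of 1.23 and 2.53. RAC2, a small GTPase best known in blood cells, was at 8.23 and 8.27 in WT cells and at 5.86 and 5.67 in PR-null cells, at least 4.46-fold higher. SLC1A6, a glutamate transporter, was at 8.21 and 8.08 in WT cells and at 5.72 and 5.74 in PR-null cells, at least 4.15-fold higher. For these 4 genes no PR-null array stood above background, and both WT arrays did.

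Secreted proteins of luminal breast cells were among the largest rises of genes measured in both lines. APOD, a lipid-binding apolipoprotein found in breast cyst fluid, was at 11.02 and 11.04 in WT cells, against 7.99 and 7.97 in PR-null cells. TFF3, a trefoil peptide and estrogen-induced gene, was at 11.33 and 11.34 in WT cells, against 8.59 and 8.48 in PR-null cells. IGFBP5, which binds insulin-like growth factors, was at 12.67 and 12.66 in WT cells, against 10.46 and 10.30 in PR-null cells. The log2 differences were 3.06 ± 0.11 for APOD, 2.80 ± 0.11 for TFF3 and 2.28 ± 0.11 for IGFBP5. Over the list of mucins, trefoil factors and other secreted proteins the picture was mixed, with 5 of 31 measured members higher and 4 lower. These are 16.1% higher and 12.9% lower, against 1.47% and 1.69% of all genes. CEACAM6 (1.22), PSCA (0.91) and PIP (0.75) were the other higher members, while S100A9 (-1.81), S100A8 (-1.77), CLU (-1.16) and MUC15 (-0.65) were lower. The list had a median log2 difference of -0.03.

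Transcription factors, kinases and enzymes filled the other places. SOX2, a pluripotency factor, was at 10.32 and 10.19 in WT cells, against 8.33 and 8.27 in PR-null cells (log2 difference 1.95 ± 0.11). SGK1, a kinase induced by glucocorticoids and progestins, was at 8.82 and 8.95 in WT cells, against 6.88 and 7.03 in PR-null cells (1.93 ± 0.12). The other SGK1 probes gave 1.60, 1.63 and, with means below background in both lines, 0.13. CYP1A2, a xenobiotic-metabolizing P450, was at 8.41 and 8.54 in WT cells, against 6.39 and 6.22 in PR-null cells (2.16 ± 0.11). ALDH1A3, which makes retinoic acid, was at 9.40 and 9.68 in WT cells, against 7.76 and 7.76 in PR-null cells (1.78 ± 0.12). Both replicates of WT stood above both of PR-null for each of these genes. SERHL2 (1.73) and UPK3B (1.65) completed the 14, but both have near-identical copies in the genome, so these probes may read more than 1 gene, and another UPK3B probe, not above background in either line, gave -0.10.

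The largest differences of all were falls. CDH10, a cadherin best known from neurons, was at 5.96 and 5.92 in WT cells, below background, against 12.55 and 12.51 in PR-null cells. It was at least 86.5-fold lower in WT cells (log2 difference -6.59 ± 0.12, adjusted p = 5.772e-37). BCHE, which encodes butyrylcholinesterase, was at 5.90 and 5.83 in WT cells, against 11.32 and 11.40 in PR-null cells. It was at least 38.5-fold lower in WT cells (-5.49 ± 0.11, adjusted p = 2.893e-35), and its other probe gave -4.43. CST6, a secreted protease inhibitor, was at 5.61 and 5.76 in WT cells, against 8.54 and 8.82 in PR-null cells, at least 6-fold lower. TRIP6, a LIM domain protein of focal adhesions, was at 5.98 and 6.09 in WT cells, against 8.81 and 8.76 in PR-null cells, at least 6.44-fold lower. For these 4 genes no WT array stood above background.

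The other ranked falls remained above background in WT cells and ranged in log2 difference from -2.89 for NTN4, a laminin-related protein, to -2.02 for TIMP1, an inhibitor of matrix metalloproteinases. NTN4 was at 7.48 and 7.43 in WT cells and at 10.43 and 10.26 in PR-null cells, and its other, dimmer probe gave -1.10. CCL2, a monocyte chemokine, was at 7.64 and 7.66 in WT cells and at 9.91 and 9.77 in PR-null cells. CLDN1, a tight junction protein, was at 8.72 and 8.88 in WT cells and at 10.96 and 11.29 in PR-null cells. Between the ends of that range lay CLEC3A (-2.79), LIPG (-2.66), ANXA1 (-2.42), MGP (-2.32), ACTA2 (-2.30) and SPRR3 (-2.09), and their arrays did not overlap either. Non-overlap alone was common: over all genes both WT arrays lay above both PR-null arrays for 25.6% and below them for 24.1%.

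**Figure D2:**
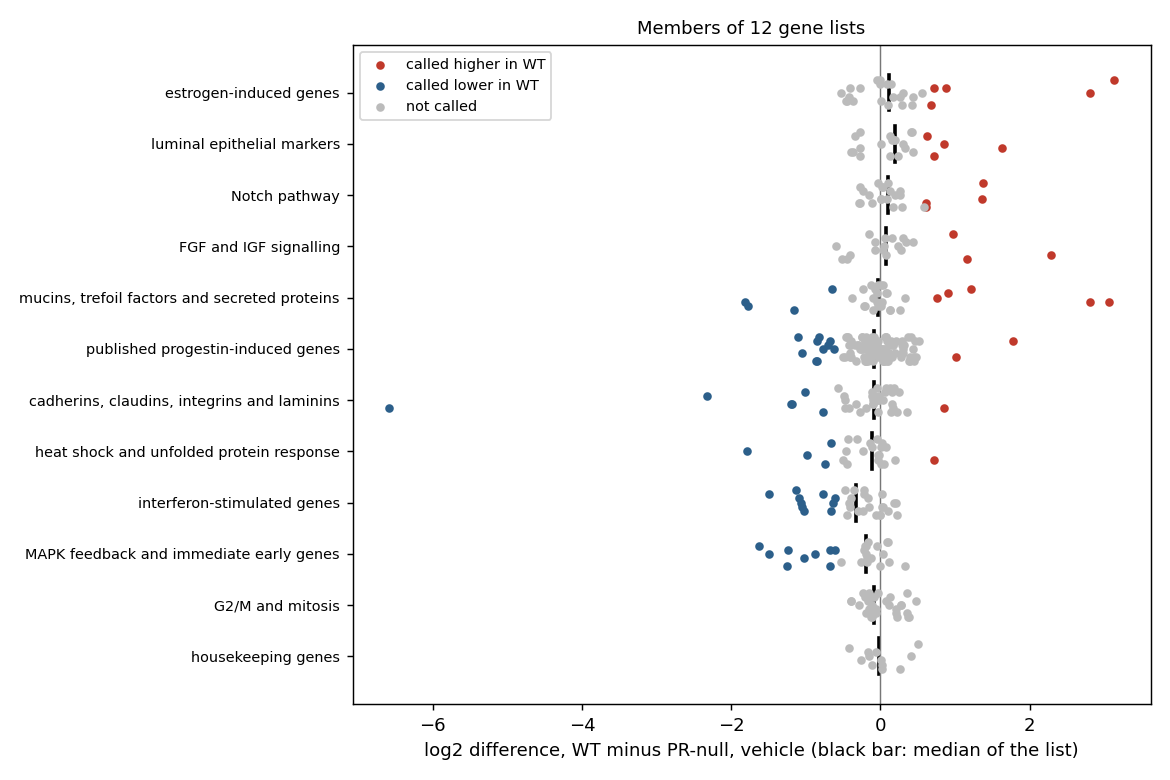
Log2 difference, WT minus PR-null in vehicle (x axis), of the measured members of 12 gene lists, each point being 1 gene, red where called higher, blue where called lower and grey where not called, with the list median as a black bar. Interferon-stimulated and MAPK feedback genes have only lower calls, and estrogen-induced, luminal, Notch and FGF and IGF genes only higher calls.

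Interferon-stimulated genes, which cells switch on through the STAT and IRF factors, had calls in the lower direction only. Of 32 measured members, 10 were lower, none was higher and the median was -0.33, against 0.005 over all genes and 1.69% of all genes lower. IFI27 was at 5.67 and 5.89 in WT cells and at 7.26 and 7.30 in PR-null cells, at least 2.27-fold lower. MX1, an antiviral GTPase, was at 7.92 and 8.12 in WT cells and at 9.28 and 9.03 in PR-null cells (log2 difference -1.13 ± 0.15). ISG15, a ubiquitin-like modifier, was at 5.92 and 6.34 in WT cells and at 7.16 and 7.27 in PR-null cells (-1.09 ± 0.14). IFIT1, which binds foreign RNA, was at 6.66 and 6.80 in WT cells and at 7.68 and 7.88 in PR-null cells (-1.05 ± 0.15). IFIT2 (-1.07), IFI6 (-1.02), ISG20 (-0.77), OAS1 (-0.66), IRF9 (-0.63) and OASL (-0.61) were also lower, and the 22 members not called ranged from -0.48 to 0.22. Among the antigen presentation genes, which interferon also raises, 1 of 20 was called, HLA-B at -0.71.

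The stretch before the start is shown for 4 of these genes, picked among the lower members because they hold the element through which interferon acts. Whether that element bears on their lower values was not tested. The 250 bases before each start are from RefSeq, build GRCh38.p14, with matches to the interferon-stimulated response element (GAAA, any 2 bases, GAAA) in capitals, searched on both strands. IFI27 is at chr14:94110486-94110735 (plus strand), ISG15 at chr1:1013247-1013496 (plus), IFIT1 at chr10:89392373-89392622 (plus) and IFI6 at chr1:27672193-27672442 (minus).
IFI27: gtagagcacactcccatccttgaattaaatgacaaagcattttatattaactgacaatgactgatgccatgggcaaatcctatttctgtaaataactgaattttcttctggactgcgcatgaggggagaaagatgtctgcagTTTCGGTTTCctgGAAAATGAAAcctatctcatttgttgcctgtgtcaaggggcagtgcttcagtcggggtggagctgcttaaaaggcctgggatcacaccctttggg
ISG15: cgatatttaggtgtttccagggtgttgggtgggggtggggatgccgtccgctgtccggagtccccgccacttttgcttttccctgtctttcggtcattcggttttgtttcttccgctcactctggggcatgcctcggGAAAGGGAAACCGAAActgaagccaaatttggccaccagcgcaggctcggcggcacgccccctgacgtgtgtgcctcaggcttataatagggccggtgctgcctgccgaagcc
IFIT1: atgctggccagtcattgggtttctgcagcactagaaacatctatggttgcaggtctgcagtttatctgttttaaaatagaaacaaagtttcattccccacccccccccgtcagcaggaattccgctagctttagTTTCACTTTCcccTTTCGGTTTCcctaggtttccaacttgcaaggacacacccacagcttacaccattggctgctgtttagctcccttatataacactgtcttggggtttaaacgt
IFI6: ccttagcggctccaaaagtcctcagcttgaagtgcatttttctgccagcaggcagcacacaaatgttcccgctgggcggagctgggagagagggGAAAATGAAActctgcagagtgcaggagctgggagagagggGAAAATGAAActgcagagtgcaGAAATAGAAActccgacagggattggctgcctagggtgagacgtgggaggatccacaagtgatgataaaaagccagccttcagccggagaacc

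IFI27 and IFIT1 each held 2 matches, ISG15 held 2 that overlap and IFI6 held 3. In windows of 300 bases that also cover the first 50 from the start, the element was found in 6 of the 8 lower interferon-stimulated genes with a RefSeq promoter (75%). OAS1 and IRF9, also lower, held no match. The element was found in 11 of the 17 that were not called (64.7%) and in 3.16% of all 15033 promoters. The element was thus also in most members of the list that were not called. The palindromic steroid element (GNACA, any 3 bases, TGTNC) was in 1 of 236 promoters of higher genes (0.424%), that of FOXN3, in 0 of 267 of lower genes and in 0.273% of all promoters. The shorter receptor site AGAACA was in 10.2% of higher, 7.87% of lower and 11.2% of all promoters. These matches describe the letters in these windows only.

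**Figure D3:**
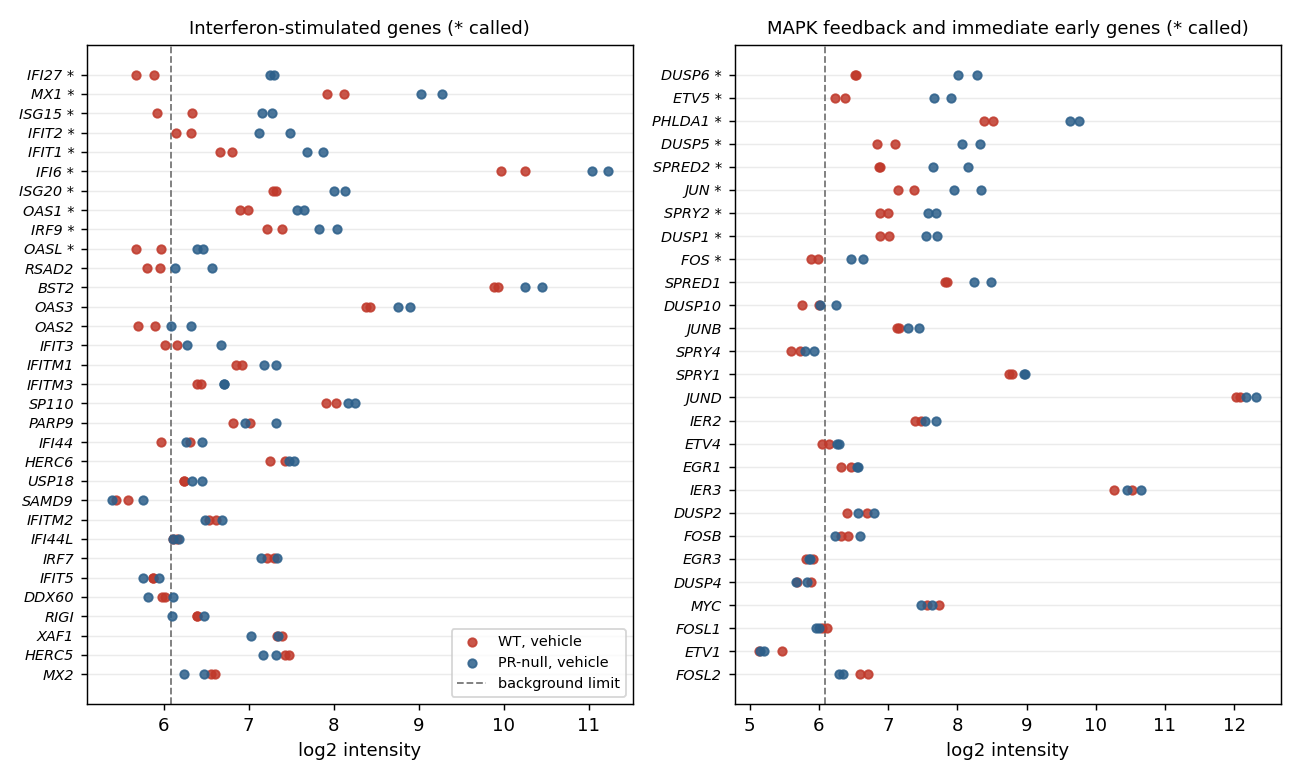
Normalized log2 intensity (x axis) on each vehicle array of the measured interferon-stimulated genes and of the MAPK feedback and immediate early genes, with called genes starred and the background limit of 6.09 dashed. For every starred gene the WT points lie left of the PR-null points.

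Genes that respond to MAPK signalling showed a second set of falls. The list joins phosphatases and Sprouty proteins that restrain the pathway with transcription factors that it induces. Of 27 measured members 9 were lower and none was higher, with a median of -0.20. Over all genes 1.69% were lower and the median was 0.005. DUSP6, the phosphatase that inactivates ERK, was at 6.53 and 6.52 in WT cells, against 8.28 and 8.01 in PR-null cells (log2 difference -1.62 ± 0.12). ETV5, an ETS factor, was at 6.37 and 6.23 in WT cells, against 7.67 and 7.91 in PR-null cells (-1.49 ± 0.12). PHLDA1 was at 8.51 and 8.38 in WT cells, against 9.76 and 9.63 in PR-null cells (-1.25 ± 0.11). DUSP5 (-1.24), SPRED2 (-1.03), JUN (-0.88), SPRY2 (-0.68), DUSP1 (-0.68) and FOS (-0.61) were lower as well, whereas the 18 others ranged from -0.53 to 0.33. Among 14 ERBB receptors and ligands the feedback inhibitor ERRFI1 (-1.13) and the ligand HBEGF (-0.72) were lower and none was higher.

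Among luminal and estrogen-induced genes the calls were all higher. ESR1, the estrogen receptor gene, was at 8.98 and 8.81 in WT cells, against 7.23 and 7.31 in PR-null cells, a log2 difference of 1.62 ± 0.12 (adjusted p = 8.663e-15). Of 22 luminal markers 4 were higher and none was lower, the others being CLDN3 (0.85), XBP1 (0.71) and ELF3 (0.62), while the keratins KRT8 (-0.39) and KRT18 (-0.34) were not called. Of 26 estrogen-induced genes 5 were higher and none was lower. PGR is on that list, so 1 of the 5 is the introduced gene, and the others were TFF3, SCUBE2 (0.88), XBP1 and ADCY9 (0.67). The medians were 0.20 for luminal markers and 0.12 for estrogen-induced genes, against 0.005 over all genes, of which 1.47% were higher and 1.69% lower.

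Genes of several developmental pathways were called, beside 1.47% of all genes higher and 1.69% lower. Of 24 Notch pathway genes 4 were higher and none was lower: LFNG (1.37), which modifies Notch receptors, the target repressors HEY2 (1.36) and HEY1 (0.61), and HES6 (0.61). Of 15 SOX factors, SOX2 and SOX9 (1.03) were higher. Of 20 FGF and IGF genes, IGFBP5, FGFR4 (1.16) and FGFR3 (0.97) were higher. Of 29 BMP and TGF-beta genes 4 were higher, with ID2 (1.05), SMAD6 (1.00), BMP7 (0.69) and BAMBI (0.67), and 2 were lower, ID3 (-1.17) and TGFB3 (-0.81). Of the adhesion genes most were not called, with 6 of 39 cadherins, claudins, integrins and laminins lower and 1 higher. The lower ones were CDH10, CLDN1, ITGA5 (-1.20), LAMC1 (-1.18), ITGB1 (-1.01) and ITGA2 (-0.77), and the higher one was CLDN3.

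Proliferation genes had few calls, whereas CDK inhibitors and stress genes were called more often than the 3.16% of all genes. All measured members of the CDK inhibitor and stress lists were expressed, and among expressed genes the share called is larger than 3.16%. None of 34 G2/M genes and 1 of 35 G1/S and replication genes (RRM2, -0.79) was called. The CDK inhibitors CDKN1A (-1.11) and CDKN2B (-0.71) were lower among 6 measured (33.3%). Of 23 heat shock and unfolded protein response genes 4 were lower, with HSPB8 (-1.78) and the co-chaperone BAG3 (-0.98) the furthest, and XBP1 was higher (21.7% called). None of 12 housekeeping genes, 11 SUMO pathway genes, 22 steroid receptor coregulators or 18 lipid synthesis genes was called.

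Genes known from earlier work on progestins were mostly not called without ligand. Of 109 measured genes that the study's sources list as progestin-induced, 2 were higher, ALDH1A3 and GRB10 (1.01), and 10 were lower, KLF4 (-1.11) and PPM1H (-1.05) the furthest. These are 1.83% higher and 9.17% lower, against 1.47% and 1.69% of all genes. In the presence of R5020, in WT against PR-null cells, 66 of these 109 were higher and 2 lower. Of 21 genes listed as regulated by PR without ligand, SELENOP, a selenium carrier, was higher (1.46) and CDKN1A, STC1 (-1.05) and SPRY2 were lower, and the 17 others ranged from -0.53 to 0.41. Of 14 measured genes that the study singled out, RAC2, DNALI1 (1.22) and SULF1 (1.03) were higher and BCHE was lower, and the 10 others ranged from -0.28 to 0.11. Those 14 were chosen by the study on these samples and are not independent evidence.

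The same pair of lines was read again on 4 other arrays, those given R5020. There 4.25% of all genes were higher in WT cells and 3.62% were lower. Of the 295 genes higher in vehicle, 139 were also higher with R5020 (47.1%, and 16.3% of the 852 higher there) and 13 were lower. Of the 338 lower genes, 231 were also lower (68.3%, and 31.9% of the 725 lower there) and 11 were higher. Of the 14 largest rises 12 were called again, and of the 14 largest falls all 14 were. CYP1A2 and SOX2 were the exceptions. The change of the line difference with R5020 was itself tested and called for 5.21% of all genes (3.09% upward and 2.13% downward) and for 10 of the 28 ranked genes. That test uses again the vehicle arrays on which the 28 were ranked. SOX2 was at 7.12 and 7.06 in WT cells with R5020, against 8.31 and 8.25 in PR-null cells with R5020, so that the sign turned. CYP1A2 was at 5.85 and 5.87 in WT cells with R5020, against 6.33 and 6.17 in PR-null cells with R5020, a difference that was not called. In PR-null cells R5020 changed no gene by these thresholds with limma. At an unadjusted limma p below 0.05, 508 genes were higher and 429 lower, together 937 of the 20046 tested. Where nothing differs, a share of about 0.05 of genes reaches such a p.

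**Figure D4:**
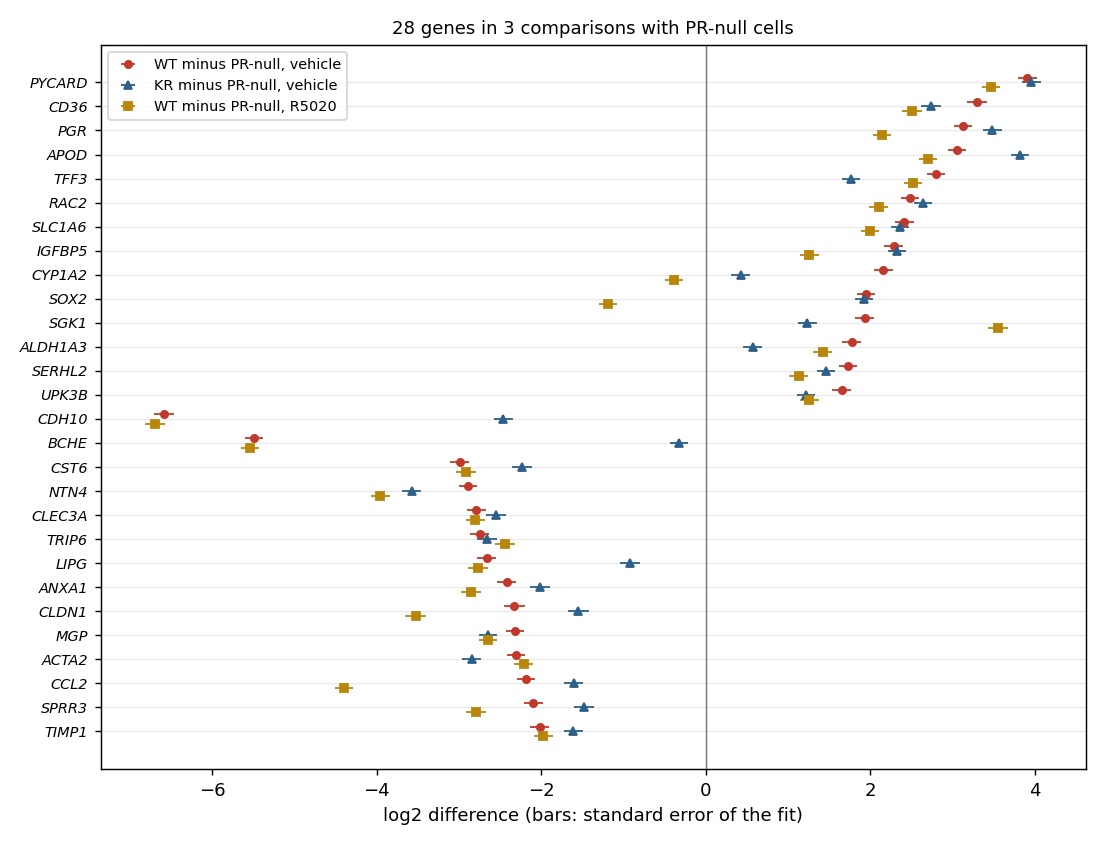
Log2 difference from PR-null cells (x axis, bars are standard errors of the fit) of the 28 ranked genes for WT in vehicle, KR in vehicle and WT with R5020. CDH10 and BCHE lie far from 0 in both WT comparisons, whereas BCHE in KR lies near 0.

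The KR line gives the values of another PR-B line against the same PR-null arrays. In it 1.01% of genes were higher and 1.59% lower than in PR-null cells in vehicle, together 2.6%. Since both comparisons share the PR-null arrays, only values are set side by side, and the test is of KR minus WT, which called 0.853% of genes (0.374% higher and 0.479% lower in KR cells). BCHE was at 11.06 and 11.02 in KR cells, against 5.90 and 5.83 in WT cells, at least 30.8-fold higher (log2 difference by the fit 5.17 ± 0.11, adjusted p = 7.564e-34), and the KR level differed from PR-null cells by -0.32, which was not called. CDH10 was at 10.02 and 10.12 in KR cells, against 5.96 and 5.92 in WT cells, at least 15.7-fold higher (4.13 ± 0.12 by the fit). CYP1A2 was at 6.70 and 6.77 in KR cells, against 8.41 and 8.54 in WT cells (-1.74 ± 0.11). For PYCARD the difference between KR and WT was 0.05 ± 0.11 and for SOX2 it was -0.03 ± 0.11, neither past the threshold.

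The higher genes were unevenly spread over the chromosomes. Chromosome 15 held 56 of its 616 genes higher (9.09%) and 2 lower, and chromosome 7 held 40 of 937 higher (4.27%) and 9 lower. On the other 21 chromosomes the higher share lay between 0.667% and 1.76%. Together chromosomes 15 and 7 carried 96 of the 295 higher genes, or 32.5%. The shift was not limited to called genes: over the 376 expressed genes of chromosome 15 (above background on both arrays of a line) the median log2 difference was 0.28, and 83% of them were above 0. Over the 540 expressed genes of chromosome 7 the median was 0.13, and on the other chromosomes medians ran from -0.06 to 0.05. Each pairing of a WT with a PR-null array gave nearly the same median, 0.27 to 0.29 on chromosome 15 and 0.12 to 0.13 on chromosome 7, while replicates of a line differed by 0.014 or less.

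**Figure D5:**
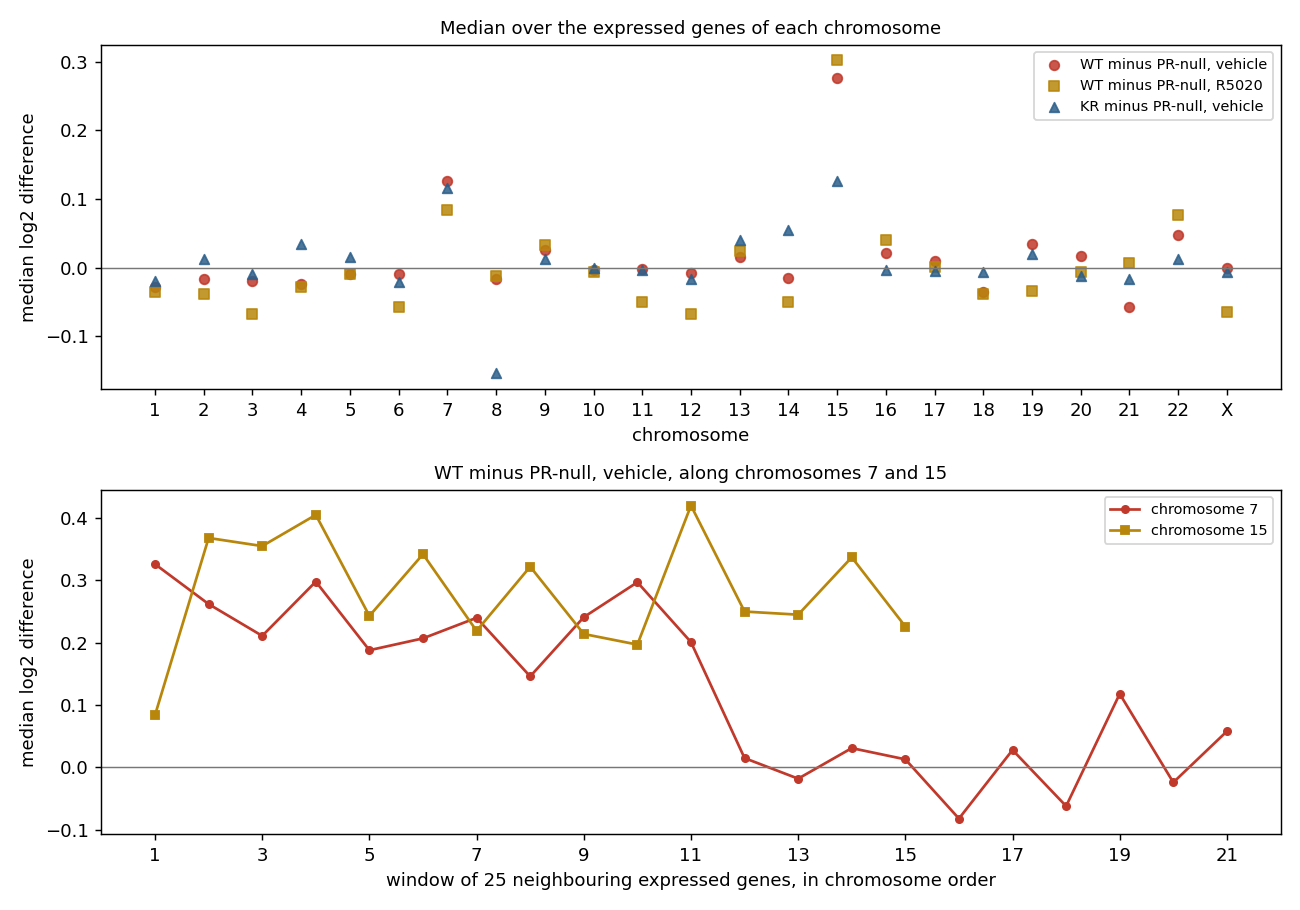
Top, the median log2 difference from PR-null cells (y axis) over the expressed genes of each chromosome for 3 comparisons. Bottom, the median in consecutive windows of 25 expressed genes along chromosomes 7 and 15 for WT minus PR-null in vehicle. Chromosome 15 is raised along its length and chromosome 7 over its first 11 windows.

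In windows of 25 neighbouring expressed genes, ordered by RefSeq, chromosome 15 was above 0 in all 15 windows (0.08 to 0.42). On chromosome 7 the first 11 windows, from FAM20C to FZD1, lay between 0.15 and 0.33, and the next 10, from MTERF1 to KMT2C, between -0.08 and 0.12. Of 418 windows on other chromosomes 1 exceeded 0.2 and 7 were below -0.2. With R5020 the medians, WT minus PR-null, were 0.30 on chromosome 15 and 0.08 on chromosome 7. In KR cells against PR-null cells in vehicle they were 0.13 and 0.12. Along chromosome 15 the KR windows were uneven, from -0.01 to 0.29. Those from KATNBL1 to TPM1 lay between 0.13 and 0.29, and those from SNUPN to HDDC3 between -0.01 and 0.04. Members with larger differences also lie on these chromosomes. Among them were CYP1A2, CYP1A1, ALDH1A3 and WDR72 (1.42) on chromosome 15 and CD36, GSDME (1.52), LFNG and FAM20C (1.28) on chromosome 7. WDR72, GSDME and FAM20C were named after their values were seen. When the median of each chromosome was subtracted from the WT arrays, 236 genes were higher and 353 were lower. A single value was subtracted per chromosome, 0.13 for chromosome 7, although only its first 11 windows were raised. The shift was therefore removed only in part there, and the other windows of that chromosome were lowered. The arrays measured RNA only, and for genes on these chromosomes receptor, clone and chromosome-wide shift cannot be told apart.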

How the data were processed

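RNA of T47D-Y lines was hybridised to Illumina HT-12v4 bead arrays. The authors deposited log2 intensities, which they had transformed and quantile normalized with lumi (no version was stated). A table of non-normalized values, with 12 signal and 12 detection p-value columns, was not used because its column codes could not be matched to samples. The number of arrays, 2 per group, limits precision.

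Probes (47231) were named through the platform annotation, updated by gene ID through RefSeq (GRCh38.p14): 30113 had 1 symbol, 8 had several and 17110 had none. The brightest of a gene's probes by mean over the 12 arrays stood for the gene. Group means were fitted to all 12 arrays with limma 3.58.1 in R 4.3.3 (lmFit, eBayes, residual df 6, prior df 37.1), with p-values adjusted over all probes. The fit was tested on simulated data. Named genes were the 14 largest called differences each way, PGR, genes from the study and its sources, and the 6 most changed calls per list. The comparison, gene lists and rules were chosen with earlier results of these data known. Same-numbered replicates did not deviate together (15 group pairs, r -0.0468 to 0.0814), so no block was fitted.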

Additional observations from a re-analysis of the deposited data

Results flagged for a closer look

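Among the 28 ranked genes, a difference between groups was found by its own limma test (adjusted p below 0.01, log2 difference over 0.6) for 12 genes between KR and WT in vehicle and for 10 genes between the R5020 and vehicle settings of the WT minus PR-null difference. Over all genes these tests called 0.853% and 5.21%. The 28 genes were ranked on the WT and PR-null vehicle arrays. Both tests use those WT arrays again, so their counts are not independent of the ranking. KR minus WT in vehicle was 5.17 for BCHE, 4.13 for CDH10, 1.74 for LIPG, 0.78 for CLDN1, 0.76 for APOD, 0.76 for CST6 and 0.62 for SPRR3. It was -1.74 for CYP1A2, -1.2 for ALDH1A3, -1.03 for TFF3, -0.69 for NTN4 and -0.69 for SGK1. BCHE, CDH10 and CST6 were not above background in WT cells, and with those arrays set to the background limit the differences were at least 4.94, 3.98 and 0.36, so that CST6 no longer passed the size threshold and 11 of the 12 did.

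WT minus PR-null with R5020, less the same difference in vehicle, was 1.62 for SGK1. It was -3.14 for SOX2, -2.55 for CYP1A2, -2.21 for CCL2, -1.2 for CLDN1, -1.07 for NTN4, -1.02 for IGFBP5, -0.99 for PGR, -0.79 for CD36 and -0.7 for SPRR3. CCL2 and CYP1A2 were not above background in WT cells with R5020, and with those arrays at the limit their changes were -1.58 and -2.32 or further from 0. PGR and CD36 were at or near background in PR-null cells, and the same step gave -0.97 and -0.7. For SOX2 the sign of the line difference turned with R5020 and was called both ways. For CYP1A2 the difference with R5020 was -0.39 and not called.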

How the results depend on the processing

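The counts of higher and lower genes stayed within 1.5 times of those reported under every alternative but the stricter size threshold. With a log2 difference over 1 they were 75 and 119 for WT against PR-null in vehicle, 295 and 272 with R5020, and 60 and 100 for KR in vehicle. Fitting the replicate block (295 higher and 338 lower), the 4 arrays alone or an intensity trend left every call in place, but these fits keep the differences as they are and the size threshold decides the calls, so they say nothing about stability: the largest adjusted p past that threshold was 0.00123 with the block and 0.00686 with 4 arrays. Leaving out 1 array at a time gave 310 to 322 higher and 357 to 388 lower genes, with 558 to 582 of the 633 calls kept. The mean over a gene's probes gave 226 higher and 267 lower and kept 487 of the 633 calls. Background correction with normexp gave 262 and 307 and kept 569. Subtracting chromosome medians, 1 value per chromosome and chosen after seeing the data, gave 236 and 353 and kept 557. Leaving out dim probes or adjusting over 1 probe per gene also kept the differences and all 633 calls. Each of the 28 ranked genes kept its direction in all 420 combinations of gene and alternative. They had been picked for the size of their difference, the smallest being 1.65, and several alternatives leave that difference as it is. That result was therefore largely fixed in advance and says little about stability.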

Other observations

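Neighbouring genes of the epidermal differentiation cluster on chromosome 1 were lower together. In the window of 25 expressed genes that runs from C2CD4D-AS1 to GATAD2B, 7 genes were lower and 0 were higher, and the median log2 difference was -0.23. Of all genes 1.69% were lower, and of the 11581 expressed genes, from which the windows were formed, 337 were lower. The median over all genes was 0.005. SPRR1A, a cornified envelope precursor, was at 7.41 and 7.26 in WT cells, against 8.97 and 9.17 in PR-null cells (log2 difference -1.73 ± 0.11). IVL, which encodes involucrin, was at 6.25 and 6.26 in WT cells, against 7.11 and 7.21 in PR-null cells (-0.91 ± 0.11). SPRR3, S100A8 and S100A9 lie in the same window. It was named after its values were seen.

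In a window of 25 expressed genes on chromosome 6 from MRS2 to H4C8, 4 genes, all histone genes, were lower and 0 were higher. Its median log2 difference was -0.22. Of all genes 1.69% were lower, and of the 11581 expressed genes 337 were lower. The window was picked from those of all chromosomes. H1-2, a linker histone, was at 8.61 and 8.64 in WT cells, against 9.97 and 9.73 in PR-null cells (-1.23 ± 0.12), and H4C8 was at 6.91 and 6.77 in WT cells, against 7.86 and 7.84 in PR-null cells (-1.01 ± 0.12). Lower histone genes were not limited to chromosome 6. On chromosome 1, H2AC18 was lower in the window from PIAS3 to H2AC18, where 0 genes were higher. H2AC19, H2BC21 and H2AC20 were lower in the next window, where 1 gene was higher. Chromosome 8 stood apart in KR cells, with a median of -0.15 over its expressed genes against PR-null cells in vehicle, where WT cells had -0.02.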
